A study of Oncorhynchus mykiss with 12 samples.

Results

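The 100 microarray probes described here had mean levels in the head kidney of PTU-fed rainbow trout that lay apart from control fish, while their means in T3-fed trout lay close to control. They were 100 of the 12884 trout probes on the array, and 89 of them were lower and 11 higher in PTU-fed fish. A level is the log2 of the scanner's processed signal of a probe minus the 75th percentile of the trout probes on that array, so a level of 0 marks a probe brighter than most. A probe was considered when the scanner software called it well above background on all 12 arrays, which held for 9872 probes, and when it was not among the 100 probes with the highest control mean, which left 9772. It qualified when its T3 mean lay within 0.25 of the control mean and its PTU mean lay 0.75 or more away. There were 422 such probes, 263 lower and 159 higher in PTU-fed fish, and the 100 with the largest PTU difference were kept. The members were thus selected on these measured levels, so their difference between PTU and control and the closeness of T3 to control are given as a description.

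Juvenile rainbow trout received feed with PTU at 5000 µg per g, feed with T3 at 20 µg per g, or feed with no agent, for 7 days. Each of the 3 groups had 4 samples, and each sample was RNA from the pooled head kidneys of 2 fish hybridised to a 1-colour (Cy3) array. All 3 groups came from 1 stock population and were spread over 6 aquaria, and the labels used here do not tie a pool to an aquarium. The array carried probes for selected immune-related genes, according to the study's design text.

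T3 (triiodothyronine) is the form of thyroid hormone that binds its nuclear receptors most tightly, and the bound receptors regulate transcription of target genes. PTU, propylthiouracil, blocks thyroid hormone synthesis in the thyroid by inhibiting thyroid peroxidase, and in mammals it also inhibits a deiodinase that makes T3. The head kidney of bony fish is a main site of blood cell formation and an immune organ, and it also holds the endocrine cells that make cortisol and catecholamines. The probe IDs of this custom array were set against a RefSeq table of 72772 trout genes, and 0 of 12884 matched, so the probes are named by ID, and gene functions, pathway lists and head kidney cell markers were not analysed here.

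Slide 2 held the 4 PTU arrays, which were scanned together, while the T3 and control arrays lay on slide 1 and shared another scan. PTU feeding and slide therefore cannot be told apart, and a probe that differed between the slides and not between T3 and control would meet the same rule. PTU replicate 3, T3 replicate 1 and control replicate 2 also stood apart, with the dimmest 20% of probes shifted by 2.04, 2.53 and 1.79 on the log2 scale, against -0.95 to 0.15 on the other arrays. Between 79.1% and 99.56% of trout probes were well above background on an array, and the number of arrays limits the precision. The pools served as the replicates in the fits, so a p-value weighs a group difference against the spread between pools. Pools of a group may have shared an aquarium, and the fits take neither aquarium nor slide into account. In tissue RNA, fewer cells of a type and less RNA per cell cannot be told apart.

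Many probes on the array came in pairs whose IDs were 6442 apart. Both probes were well above background on every array in 4838 such pairs, and there the median correlation over the 12 arrays was 0.986 and the median absolute difference in level was 0.0739. For IDs 6441 apart the median correlation was 0.163, and for IDs 6443 apart it was 0.152. The files used here do not state that these are 2 spots of 1 sequence, but their levels followed each other closely, so the members of a pair are not separate evidence. Counts below are of probes unless pairs are named. The number of the lower ID is called the pair number. The 100 members came from 72 pairs: both spots were members in 28 pairs and 1 spot in 44.

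In the 44 pairs with 1 member, the other spot had the same sign of the PTU difference each time, and the smallest such difference was 0.54 in size. In 32 of these pairs the other spot missed only the limit on the T3 difference, in 8 it met the rule without reaching the first 100, in 3 it was not well above background on all arrays, and in 1 its PTU difference was under the limit. The levels of the 2 spots of a member pair had a median correlation of 0.994 and a lowest correlation of 0.771. Of the 32 spots past the T3 limit, 22 had a PTU difference at least as large as the last member kept, and 10 had a smaller one.

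**Figure D1:**
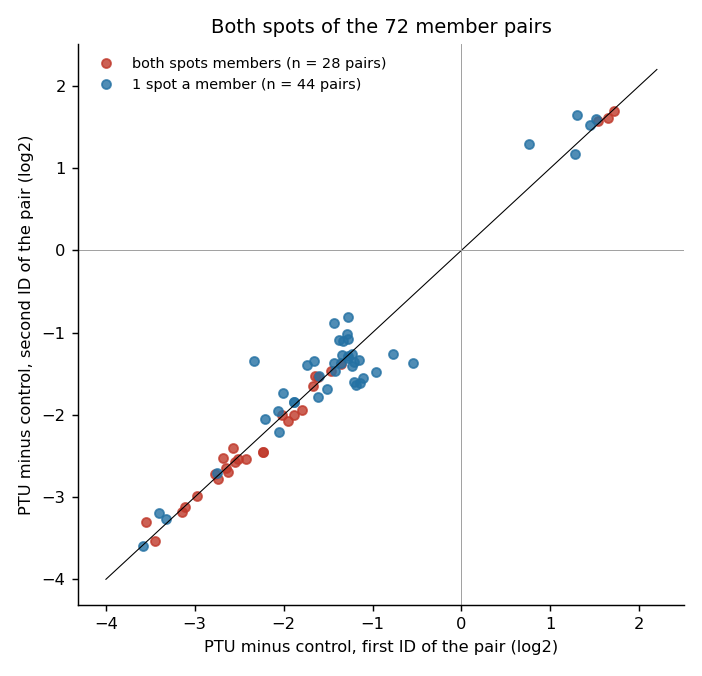
PTU minus control difference (log2) of the lower ID against that of the higher ID, 1 point for each of the 72 member pairs. Red points are pairs with both spots among the members and blue points pairs with 1, most points lie near the diagonal line of equal differences, and the 2 spots of every pair have the same sign.

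The members fell into 3 sets by ID and direction. There were 42 members from 26 pairs in 1 stretch of pair numbers, 83 to 236, all lower in PTU-fed fish. Another 47 members from 38 pairs were lower in PTU-fed fish and had pair numbers between 358 and 6098. The remaining 11 members, from 8 pairs, were higher in PTU-fed fish. The stretch was delimited after the values were seen, as the longest run of member pair numbers with steps of at most 25, so its edges are a description.

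**Figure D2:**
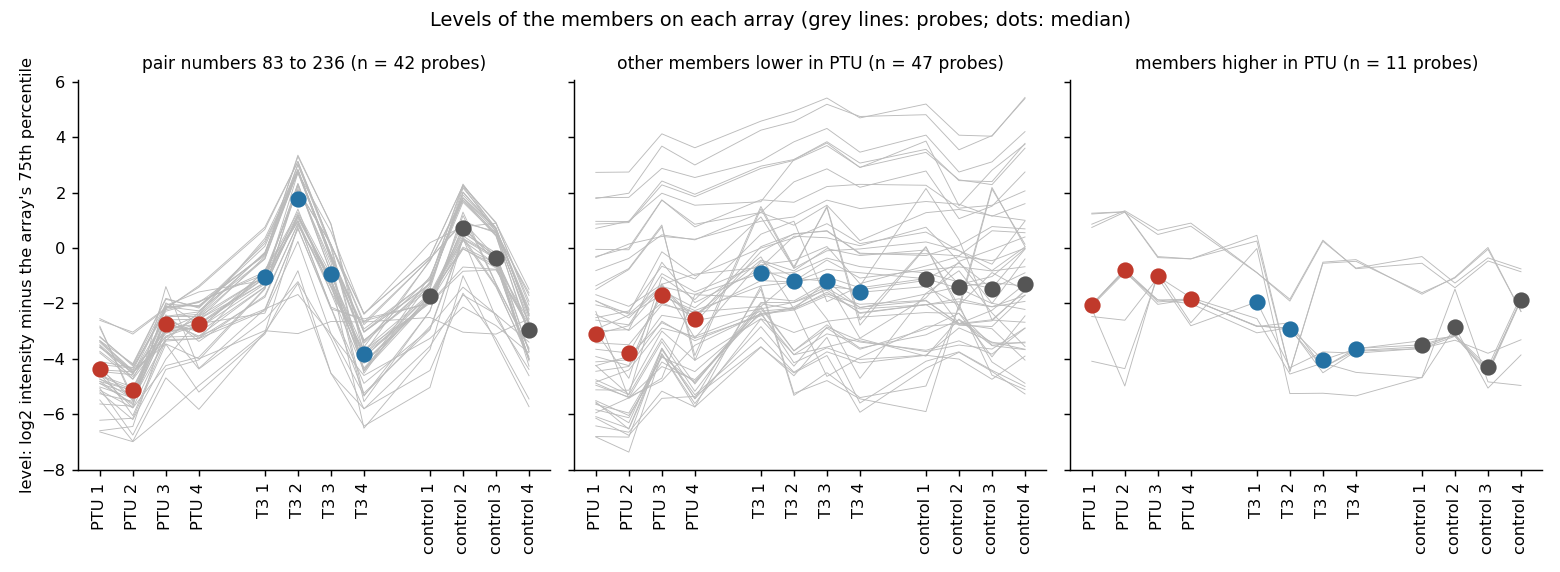
Level (log2 of signal over the array's 75th percentile) of each member as a grey line and the median of each set of members as a dot, with PTU, T3 and control arrays from left to right. The ID stretch reached -5.14 on PTU replicate 2 and 1.76 on T3 replicate 2, while the median of the other lower members was between -1.60 and -0.92 on the 8 T3 and control arrays.

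Within the stretch of pair numbers 83 to 236, the members were on the median 2.61 lower on the log2 scale in PTU-fed than in control fish, with a range of differences of -3.59 to -1.27. Their median level was -4.38, -5.14, -2.76 and -2.73 on the PTU arrays. It was -1.04, 1.76, -0.93 and -3.82 on the T3 arrays, against -1.72, 0.73, -0.34 and -2.97 on the control arrays. The T3 and control means lay close together although the pools within each group ranged widely, and T3 replicate 4 and control replicate 4 were lower than the 2 higher PTU pools.

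Pools differed more for these members than over all probes considered. Members were kept for large differences of group means, which probes with a wide spread reach more easily. The wider spread thus follows in part from the choice. The median SD within a group was 1.19 over the PTU pools, 2.31 over the T3 pools and 1.88 over the control pools, against 0.50, 0.47 and 0.53 over all 9772 probes considered. In 25 of the 26 pairs T3 replicate 2 was the highest T3 pool and T3 replicate 4 the lowest. In 24 pairs control replicate 2 was the highest control pool, and in 25 pairs control replicate 4 was the lowest. PTU replicate 2 was the lowest PTU pool in 25 pairs. After group means were removed, the median correlation between pairs of the stretch over the 12 arrays was 0.925, with a 5th percentile of -0.02. The median was 0.157 between these pairs and the other lower pairs, and 0.511 among the other lower pairs. These correlations share the same 12 libraries and describe a common order of the pools.

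JC006654, whose other spot was not well above background on all arrays, had the largest difference of all members. Its processed signal was low, at 16.1 to 54.6 on the PTU arrays and 17.1 on the array of T3 replicate 4. Its levels were -6.64, -6.99, -6.004 and -4.96 in PTU pools, -3.04, 0.80, -1.13 and -6.50 in T3 pools, and -3.67, 0.35, -2.53 and -4.38 in control pools. The lowest T3 pool lay among the PTU pools, so PTU and T3 overlapped, while all PTU pools lay below all control pools. The means were -6.15 ± 0.89 in PTU pools, -2.47 ± 3.11 in T3 pools and -2.56 ± 2.08 in control pools (SD, n = 4 each). The PTU difference from control of -3.59 had a standard error of 1.40 and a limma adjusted p of 0.41.

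JC000122 and JC006564, the 2 spots of pair 122, showed the same order of pools at a higher level. JC006564 had levels of -4.36, -6.05, -3.34 and -2.32 in PTU pools, -0.19, 3.03, 0.12 and -4.44 in T3 pools, and -1.02, 1.73, 0.43 and -3.06 in control pools. PTU and control pools overlapped here, because PTU replicate 4 lay above control replicate 4. The PTU difference from control was -3.53 with a standard error of 1.47 and a limma adjusted p of 0.435. The 8 members with the largest negative differences all lay in this stretch, and the smallest of these differences was -3.18, in JC006548.

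In the stretch, 3 of the 42 members had all 4 PTU pools below all 8 other pools, beside 0.941% of the 9772 probes considered: JC000227 and JC006669, which are 1 pair, and JC000140. With both spots averaged this held for 1 of the 26 pairs, and the share over all averaged pairs was not computed. The rule used these levels, so nothing is read from the counts. JC000227 had levels of -3.35, -4.46, -3.36 and -3.27 in PTU pools, -2.26, 0.73, -2.20 and -2.56 in T3 pools, and -1.995, -0.84, -0.79 and -2.75 in control pools. The PTU pools lay closest to control replicate 4, and T3 replicate 2 stood far above the other T3 pools. JC000140 had levels of -4.39, -4.47, -3.46 and -3.996 in PTU pools, -2.98, -3.09, -2.65 and -2.67 in T3 pools, and -2.51, -3.04, -3.11 and -2.55 in control pools. This member lacked the wide spread between pools of its neighbours. Its other spot had a smaller PTU difference of -0.81 and a T3 difference of -0.34, past the limit, and the 2 spots had a correlation of 0.798. In 13 of the 42 members all PTU pools lay below all control pools, beside 3.62% of the 9772 probes considered. With spots averaged this held in 7 of the 26 pairs, and the share over all averaged pairs was not computed. Nothing is read from these counts either.

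Members made up 42 of the 201 probes considered in this ID range, or 20.9%, and 58 of the 9571 elsewhere, or 0.606%. Counting every probe there with a PTU mean at least 0.75 below control, without regard to T3, gave 92 of 201 (45.77%). Elsewhere it gave 823 of 9571 (8.599%). The range was drawn around members, and the 92 probes include the 42 members. Higher shares inside it thus follow in part from its choice, and nothing is read from them. Of those 92 probes, 54 had a T3 mean within the limit, 26 a higher and 12 a lower T3 mean. The 42 members came from these 54 probes, and the other probes among the 54 did not reach the first 100.

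**Figure D3:**
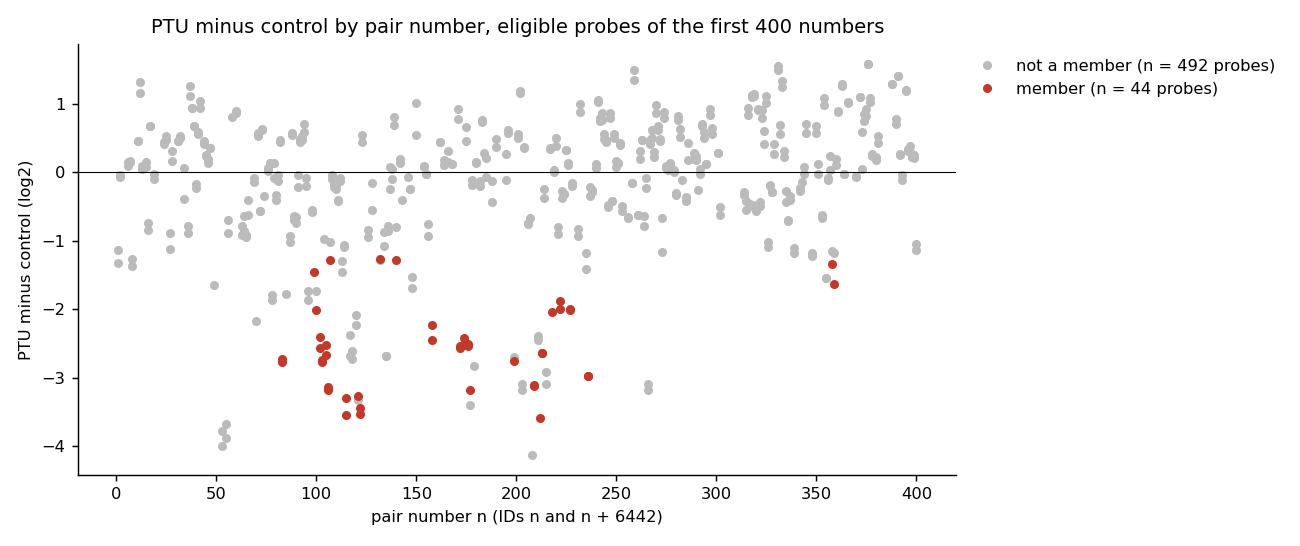
PTU minus control difference (log2) against pair number for the probes considered among the first 400 pair numbers, with members in red and other probes in grey. Between numbers 83 and 236, 50 of the 159 probes that are not members also lie 0.75 or more below control, and the others lie above that.

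The closeness of T3 to control in this stretch depended on which pools were included. Without T3 replicate 2 the median T3 difference from control over the 42 members was -0.84, and 1 of 42 was still within 0.25 of control. Without T3 replicate 4 it was 1.01, and again 1 of 42 was within the limit. Without control replicate 4 it was -0.59 with 2 of 42 within the limit, without control replicate 2 it was 0.74 with 4 of 42, and without control replicate 3 it was 0.31 with 14 of 42. Leaving out control replicate 1 kept 31 of 42 within the limit, leaving out T3 replicate 1 kept 35, and leaving out T3 replicate 3 kept 30. With all pools the median T3 difference was 0.07. The median PTU difference, selected by the rule to be large, was -3.39 when control replicate 4 was left out and -1.95 when control replicate 2 was.

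The other 47 lower members had a median PTU difference of -1.54, with a range of -2.70 to -1.26, and their medians differed little between the T3 and control pools. Their median level was -3.11, -3.79, -1.68 and -2.57 on the PTU arrays. It was -0.92, -1.20, -1.20 and -1.60 on the T3 arrays, against -1.11, -1.39, -1.46 and -1.30 on the control arrays. All 4 PTU medians lay below all 8 others. PTU replicate 3, the PTU array with raised dim probes, was the highest PTU pool in 34 of the 38 pairs. The median SD within a group was 0.89 over the PTU pools, 0.52 over the T3 pools and 0.56 over the control pools. Their closeness of T3 to control also depended on the pools and the processing. With 1 T3 or control pool left out, 22 to 40 of the 47 were within the T3 limit. The lowest number came without control replicate 4 and the highest without control replicate 3. Scaling by the median left 26 within the limit. Normexp background correction left 14, with a median T3 difference of -0.32, against -0.23 over all probes considered.

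The pair JC000708 and JC007150 had the lowest unadjusted p of the members. JC007150 had levels of -4.88, -5.40, -3.38 and -5.17 in PTU pools, -2.01, -2.20, -1.60 and -2.33 in T3 pools, and -2.04, -1.94, -2.12 and -1.93 in control pools. JC000708 had levels of -4.75, -5.29, -3.27 and -4.91 in PTU pools, -1.97, -1.97, -1.51 and -2.36 in T3 pools, and -2.05, -1.83, -2.12 and -1.72 in control pools. Every PTU pool lay below every other pool on both spots, and the T3 and control pools shared 1 narrow range. JC007150 averaged -4.71 ± 0.91 in PTU pools, -2.03 ± 0.32 in T3 pools and -2.01 ± 0.09 in control pools (SD, n = 4 each), a 6.49-fold lower signal in PTU than in control fish.

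The limma fit gave JC007150 a PTU difference from control of -2.70 with a standard error of 0.40 and an adjusted p of 0.122, and a PTU difference from T3 of -2.67 with an adjusted p of 0.0983. With the 2 spots of each pair averaged before the fit, the pair had a PTU difference from control of -2.66, a standard error of 0.39 and a limma adjusted p of 0.0982, and a PTU difference from T3 of -2.64 with an adjusted p of 0.108. None of these passed the threshold of 0.05. Against control both spots passed it under 4 alternatives, some of which left out PTU replicate 3, the highest PTU pool of the pair. The pair was selected on this contrast and its spots are not separate evidence, so nothing is read from these calls. The limma adjusted p of JC007150 was 0.0114 after quantile normalization, 0.00743 with array weights, 0.00177 without PTU replicate 3 and 0.0168 without the 3 arrays with raised dim probes, and over all alternatives it reached 0.556, without control replicate 3.

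The pair JC002661 and JC009103 came next in that order. JC009103 had levels of -1.90, -2.52, -1.38 and -2.70 in PTU pools, -0.13, 0.52, 0.61 and -0.18 in T3 pools, and -0.27, 0.09, 0.77 and 0.69 in control pools. The highest PTU pool was more than a full log2 unit below the lowest T3 or control pool. Its PTU difference from control was -2.45 with a standard error of 0.37 and a limma adjusted p of 0.122, and JC002661 gave -2.23 with an adjusted p of 0.13. Averaged over both spots the limma adjusted p was 0.0982 against control and 0.108 against T3. JC009103 had a limma adjusted p of 0.0319 after quantile normalization, 0.0116 with array weights and 0.0463 without PTU replicate 3, its highest PTU pool. It too reached 0.556 without control replicate 3. Nothing is read from these calls either.

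JC007021, the single member of its pair, had levels of -2.40, -2.98, -1.98 and -2.44 in PTU pools, -0.44, -0.82, -0.02 and -0.27 in T3 pools, and -0.07, -1.31, -1.03 and -0.02 in control pools. PTU pools lay below all others, while control pools formed a high and a low couple. Its PTU difference from control was -1.84 with a limma adjusted p of 0.268. The other spot of the pair, JC000579, missed the limit on the T3 difference.

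JC010555 had levels of -0.34, 0.14, 0.42 and 0.32 in PTU pools, 0.96, 1.12, 1.73 and 1.42 in T3 pools, and 1.68, 1.58, 1.15 and 1.60 in control pools. The PTU pools lay below all others, and the T3 and control pools overlapped. Its 2 spots differed: the PTU difference was -1.37 for JC010555 and -0.54 for its partner JC004113, the single other spot under the PTU limit. JC005460 had levels of -2.93, -2.42, -1.68 and -2.37 in PTU pools, -1.18, -1.23, -1.04 and -1.44 in T3 pools, and -1.10, -0.55, -1.46 and -0.90 in control pools. Here too every PTU pool was below every other pool, by the narrowest margin for PTU replicate 3.

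**Figure D4:**
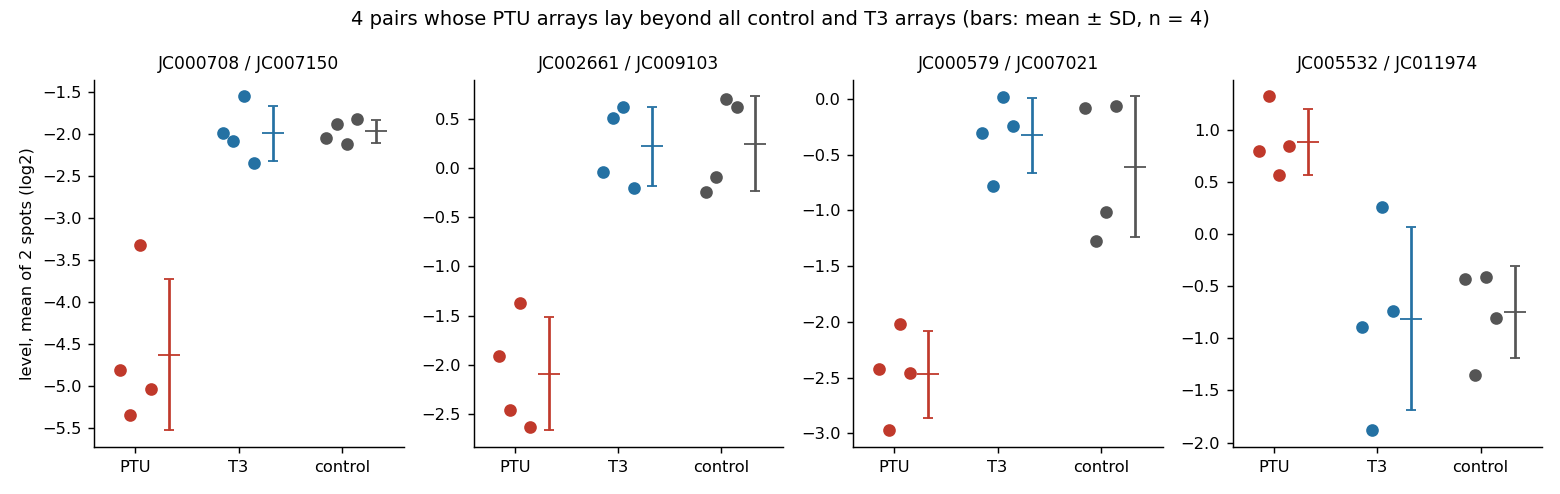
Levels (log2 of signal over the array's 75th percentile, mean of both spots) of 4 pairs in the PTU, T3 and control pools from left to right, 1 point for each pool, with bars for the mean ± SD of 4 pools. In the pairs of JC000708, JC002661 and JC000579 all PTU points lie below all others, and in the pair of JC005532 they lie above.

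The 3 brightest lower members were JC002599, JC010388 and JC010672, and their pools followed much the same order. JC002599 had levels of 2.73, 2.74, 4.12 and 3.62 in PTU pools, 4.58, 4.93, 5.41 and 4.69 in T3 pools, and 5.195, 4.07, 4.03 and 5.43 in control pools. JC010388 had levels of 1.79, 1.98, 3.68 and 2.996 in PTU pools, 4.25, 4.56, 5.19 and 4.75 in T3 pools, and 4.81, 3.54, 4.06 and 5.39 in control pools. In both, PTU replicates 1 and 2 were lowest, PTU replicate 3 reached the lower control pools, and control replicates 1 and 4 stood above control replicates 2 and 3. The PTU difference from control was -1.38 for JC002599, with a limma adjusted p of 0.389.

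The 11 members higher in PTU-fed fish had a median PTU difference of 1.58, with a range of 1.28 to 1.72. With normexp background correction their median was 0.42. The median over all 9772 probes considered was then -0.36, against 0.02 without it. Only the pair JC005532 and JC011974 had all 4 PTU pools above all 8 others. JC005532 had levels of 0.74, 1.30, 0.49 and 0.79 in PTU pools, -0.89, -1.85, 0.28 and -0.75 in T3 pools, and -0.55, -1.43, -0.47 and -0.86 in control pools. T3 replicate 3 came within a small distance of the lowest PTU pool, and the other T3 and control pools were well below. The PTU mean was 3.15-fold the control mean, a difference of 1.66 with a standard error of 0.42 and a limma adjusted p of 0.349.

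JC006429 and JC012871, the pair with the largest positive difference, did not separate the groups. JC006429 had levels of 1.26, 1.31, -0.31 and -0.39 in PTU pools, 0.25, -4.46, -0.55 and -0.48 in T3 pools, and -1.61, -1.08, -0.05 and -2.28 in control pools. PTU replicates 1 and 2 were high, PTU replicates 3 and 4 lay among the control and T3 pools, and T3 replicate 2 stood far below every other pool. Without T3 replicate 2, 1 of the 11 higher members was still within the T3 limit, and without T3 replicate 1 the number was 2. It was 3 without control replicate 4 and 4 without control replicate 3. With any other T3 or control pool left out it was 6 to 8, and with normexp it was 4.

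The pairs of JC001642, JC001047 and JC001241 carried nearly the same levels. Between the pairs of JC001047 and JC001642 the mean absolute difference over the 12 arrays was 0.0674. JC008084, the other spot of JC001642, had levels of -2.04, -0.77, -1.95 and -1.85 in PTU pools, -2.81, -2.91, -4.32 and -3.62 in T3 pools, and -3.49, -3.13, -4.41 and -1.87 in control pools. All PTU pools were above all T3 pools, and control replicate 4 lay within the PTU range. The PTU difference of JC008084 was 1.58, and it was 0.50 with normexp, where JC001642 had 0.40. The median over all probes considered was then -0.36. Whether the 3 pairs target related transcripts was not analysed here.

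Across all members, 0 of 100 had an adjusted p under 0.05 in the limma fit of PTU against control over 11762 probes, where 0 probes were called (0%). The fit of PTU against T3 also called 0 of 11762 probes (0%), and so did that of T3 against control (0%). At an unadjusted p under 0.05 the limma fits counted 1234 probes for PTU against control, 810 for PTU against T3 and 632 for T3 against control. Members lower in PTU-fed fish reached an unadjusted p under 0.05 in 68 of 89 cases, beside 5.47% of all probes tested being lower at that level. Members higher in PTU-fed fish did so in 7 of 11 cases, beside 5.02% of all probes. As the rule used this contrast, nothing is read from these shares. The members' adjusted p from limma ran from 0.122 to 0.862 for PTU against control.

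All 4 PTU pools lay below all T3 and control pools in 17 members, beside 0.941% of the 9772 probes considered, and above them in 2 members, beside 0.716%. The rule used the same levels, so these counts describe the members. Of the 17, 14 were among the other lower members and 3 in the ID stretch. With spots averaged, all PTU pools lay below all others in 8 of the 38 other lower pairs and in 1 of the 26 pairs of the stretch. They lay above all others in 1 of the 8 higher pairs. The shares over all averaged pairs were not computed, so nothing is read from these pair counts. The median standard error of the PTU difference was 1.16 in the ID stretch, 0.49 in the other lower members and 0.55 in the higher members, against 0.43 over all probes tested.

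Comparisons of PTU with control and of T3 with control share the control pools. Over the 9772 probes the median difference was 0.02 for PTU and 0.11 for T3. The mirrored rule, with T3 shifted and PTU near control, found 167 probes. Over 5 equal classes of these probes by control level, from the dimmest to the brightest, the members numbered 13, 15, 33, 29 and 10, and the higher members 3, 4, 3, 1 and 0.

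The array maker's control probes, which carry no trout probe ID, were measured by the same rule. Of 60 such probes, 28 were well above background on all arrays, and 3 of these met both limits, beside 422 of the 9772 trout probes considered. DCP_22_7 and DCP_22_9, both among the 3, share a name family, so the 3 are not taken as separate cases. The control probe DCP_22_9 had levels of -5.30, -4.83, -3.57 and -4.35 on PTU arrays, -3.07, -3.63, -3.43 and -3.49 on T3 arrays, and -3.14, -3.25, -3.61 and -3.45 on control arrays. Its PTU difference from control was -1.15 and its T3 difference -0.04. Taken minus DCP_22_0, a control probe of the same name family, it was at -3.71, -3.89, -3.52 and -3.80 on PTU arrays. It ran from -3.26 to -2.96 on T3 arrays and from -3.47 to -2.04 on control arrays, so all 4 PTU arrays lay lowest. No other such contrast in the DCP_22 and DCP_20 families separated all PTU arrays, and this contrast was picked after its values were seen. In level, PTU replicate 3 was the highest PTU array of DCP_22_9, and also of DCP_1_0, whose PTU difference was 0.04. Whether the control probes and the members share an order of arrays was not tested.

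The 4 control probes plotted were chosen after their values were seen. The control probe DCP_22_7 had a PTU difference of -0.82 and a T3 difference of 0.14. The bright corner spots had a PTU difference of 0.81 and a T3 difference of 0.13. Their levels were 4.33, 1.21, 5.84 and 2.18 on the PTU arrays, so PTU replicate 2 was the lowest of all arrays. They ran from 1.86 to 3.73 on the T3 arrays and from 2.24 to 3.16 on the control arrays. Differences of the size the rule asks for, with T3 near control, thus also occurred on spots of the array maker. These 3 were smaller than the smallest member difference of 1.26 in size. That size is where keeping 100 of the 422 qualifying trout probes cut off, so nothing is read from this. Another control probe, ETG10_195139, chosen after its values were seen, had a PTU difference of 3.03 and a T3 difference of 0.73, which is past the T3 limit. Its levels ran from -2.14 to 1.68 on PTU arrays, from -3.59 to -0.52 on T3 arrays and from -4.12 to -1.03 on control arrays. The part of the control probes in the members' differences was not tested.

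**Figure D5:**
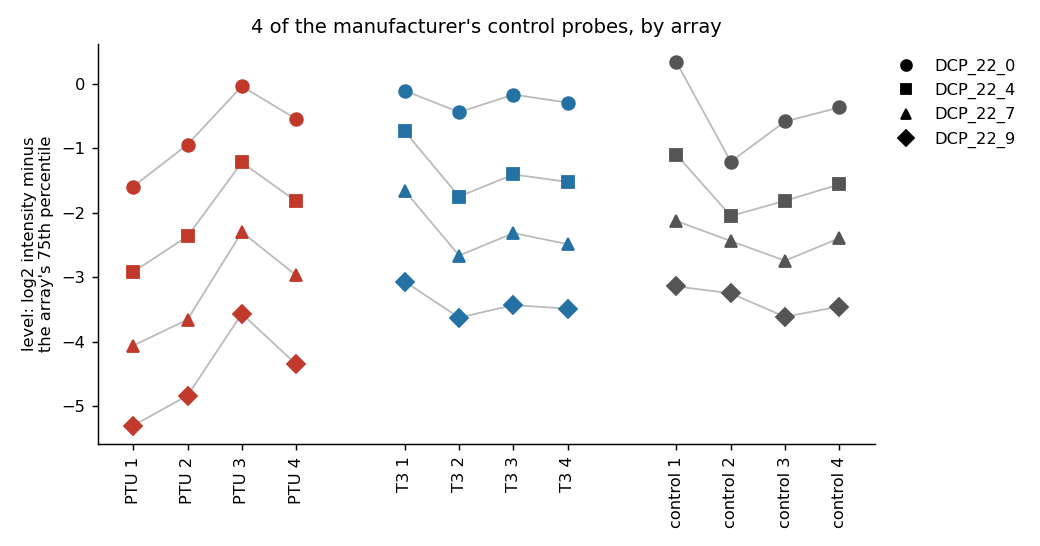
Levels (log2 of signal over the array's 75th percentile) of 4 control probes of the array maker on the PTU, T3 and control arrays from left to right, 1 point for each array, with grey lines joining the arrays of a group. The 2 lower ones, DCP_22_7 and DCP_22_9, met both limits, and for DCP_22_9 3 of the 4 PTU arrays lie below all T3 and control arrays.

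At the edges of the rule, the last member kept was JC011883 with a PTU difference of -1.263, and the first not kept was JC009545 with -1.261. The member nearest to the T3 limit was JC009160 with a T3 difference of 0.245, and just outside it lay JC006574 with 0.251. The probes nearest to the PTU limit were JC009218 inside, at -0.7503, and JC010986 outside, at 0.7499.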

How the data were processed

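Head kidney RNA of 12 pools was measured on 1-colour arrays of a custom trout design. Per the file headers, Agilent Feature Extraction 10.7.3.1 made the processed intensity, corrected for background within the array. The deposited value table holds each probe's fraction of its array's summed trout signal, as its column sums of 0.99994 to 1.0001 show, and its origin is not given in the sources used here. Levels were log2 processed intensity minus the array's 75th percentile over trout probes. Tests used limma 3.58.1 in R 4.3.3 on 11762 probes well above background on at least 3 of 4 arrays of a group, all 3 groups in 1 fit, outlier spots left out, two-sided, Benjamini-Hochberg adjusted with a threshold of 0.05. The fit was tested on simulated data. The members, lists and ID sets were chosen with earlier results of these data known.

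Members named were the 8 with the largest differences in each direction, up to 8 in each direction whose PTU pools lay beyond all others, ordered by unadjusted p, the 3 brightest in each direction and those beside each limit. The pathway lists and the cell marker lists were not analysed here, as no ID had a gene name. JC000227, JC006669, JC005530, JC011972, JC004113, JC000579, JC001047 and JC001241 fall outside that rule and were chosen after their values were seen.

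Alternatives were scaling by the median, or by the percentile of probes detected on every array, quantile normalization, normexp with an offset of 50, the deposited values, outlier spots, filters on dim and bright probes, the fit's samples, variance model, array weights, each array left out, and the replicate number as a block. Normexp ran on median signals, since no mean signal column was among those used. Averaging the spots of an ID pair was added after seeing the data.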

Additional observations from a re-analysis of the deposited data

Results flagged for a closer look

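Each group of 4 pools of the named probes was examined for a pool whose gap to the nearest other pool took up most of the group's range. Of 96 groups, 5 had such a pool, and chance alone marks about 1 in 20. In JC006429, T3 replicate 2 was at -4.456, against -0.551 to 0.252 in the other T3 pools. PTU replicate 2 was apart in 3 members of near-equal levels: it was at -0.835 in JC007489 (other PTU pools -2.035 to -1.847), at -0.772 in JC008084 (-2.042 to -1.846) and at -0.785 in JC001642 (-2.052 to -1.842). In JC011883, control replicate 3 was at -4.737, against -4.008 to -3.871 in the other control pools.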

How the results depend on the processing

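The count of 422 probes meeting the rule was 328 to 678 with 1 array left out, lowest without T3 replicate 2 and highest without PTU replicate 3, and 781 without the 3 arrays with raised dim probes. With pair spots averaged it was 194 pairs. Against control, PTU calls by limma at an adjusted p under 0.05 numbered 0, but 7 after quantile normalization, 5 with array weights, 0 to 4 with 1 array left out (4 without PTU replicate 3) and 3 without the 3 arrays. Against T3, PTU calls numbered 0, but 4, 7, 0 to 3 (3 without PTU replicate 3) and 2 under those same settings in that order. All probes called against control were lower in PTU pools, and they were members except JC005530. As the rule used this contrast, nothing is read from that. T3 against control stayed at 0 under every setting, and with the replicate number as a block all 3 comparisons called 0. The labels do not say whether the numbers pair the pools. Same-number correlations of deviations were over 0.1 in 3 of 12 cases, and 4 of 24 best matches had the same number. In the ID stretch replicate 2 was the highest T3 pool in 25 of 26 pairs and the highest control pool in 24. Replicate 4 was the lowest T3 pool and the lowest control pool in 25 pairs each, while PTU replicate 2 was the lowest PTU pool in 25. These pairs had a median correlation of 0.925 with each other after group means were removed, so they are not 26 separate cases. Nothing about a pairing of the pools is read from them. The cause of the shifts in the counts was not tested. Under normexp 98 of 100 members kept the sign of the PTU difference and 93 its size limit, with a median of 0.42 for the higher members and of -0.36 over all probes considered; under the other settings all 100 kept the sign. The median T3 difference from control over all probes considered was -0.13 with median scaling and -0.23 with normexp, against 0.11, and 61 and 50 members met both limits. That number was 27 without control replicate 4, 34 without T3 replicate 2 and 39 without T3 replicate 4. With outlier spots left out of the rule it was 99, because the T3 difference of 1 member changed from 0.20 to -0.75. Precision is limited by 4 pools a group.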

Other observations

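JC005530 lies outside the members: it was well above background on 5 of 12 arrays, and its T3 difference from control of -0.43 was past the limit. Its levels were -9.38, -9.80, -6.68 and -9.15 in PTU pools, -6.20, -6.97, -6.59 and -6.73 in T3 pools, and -5.79, -5.76, -6.57 and -6.66 in control pools. PTU replicate 3 lay among the T3 and control pools, and the other 3 PTU pools lay below them. It was called lower in PTU than in control pools by limma with array weights (adjusted p = 0.041), without PTU replicate 3 (0.0046) and without the 3 arrays with raised dim probes (0.0168). The other spot of its pair, JC011972, was well above background on 4 arrays, had a PTU difference of -1.57 and a T3 difference of -0.72 from control, overlapped between PTU and T3 pools, and was called under none of the settings run. Both spots were not well above background on any PTU array, so their PTU levels and differences are not measured sizes and give only a bound.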
